A study of Mus musculus with 2 samples.

Results

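The mitochondrial ribosomal protein genes were taken as every gene whose symbol starts with Mrpl or Mrps followed by a digit. This rule, which uses no measured value, found 78 of 32285 listed genes, 49 of them Mrpl genes named for the large subunit and 29 Mrps genes named for the small subunit. All 78 members are annotated as protein coding, and they lie on 17 chromosomes. They were described in droplet single-cell RNA sequencing of YFP+7AAD- cells sorted from spleens of 7-day-old C57BL/6J mice, where WT and KO (Zfp335fl/flFoxp3-Cre) mice each gave 1 library. In the KO mice a Cre recombinase under control of Foxp3, the transcription factor that defines regulatory T cells (Tregs), removes the floxed zinc finger gene Zfp335, and YFP follows Foxp3 expression. The deletion starts only once a cell expresses Foxp3. The mice that the study calls WT carry the same Foxp3-Cre with YFP, without the floxed gene. How many mice were pooled per library was not stated, and with 1 library per genotype no difference between WT and KO could be set against a spread between mice.

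Mitochondria keep their own ribosome, the mitoribosome, which translates the few proteins still encoded by mitochondrial DNA, all of them parts of the respiratory chain and ATP synthase. Its RNA comes from mitochondrial DNA, whereas all of its proteins are encoded in the nucleus, made by cytosolic ribosomes and imported. The small subunit reads the mRNA, and the large subunit joins the amino acids at the inner membrane. T cells are known to build up mitochondrial translation when they leave the resting state and divide.

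The promoters of 5 members are shown because 4 of these genes, Mrps5, Mrpl11, Mrpl30 and Mrps7, departed from the other members between WT and KO in several T cell classes, and the last, Mrpl52, held the most unique molecular identifiers (UMIs, each marking 1 captured transcript) of the module. Each is a window of 300 bases, from 250 bases before to 50 after the start that RefSeq gives the gene, on the plus strand of build GRCm38.p6 from RefSeq, at chr2:127587176-127587475 for Mrps5, chr19:4962056-4962355 for Mrpl11, chr1:37890227-37890526 for Mrpl30, chr11:115603890-115604189 for Mrps7 and chr14:54426659-54426958 for Mrpl52. Capitals mark exact matches, on either strand, to the ETS-type motif CCGGAAG, the YY1-type motif AAGATGGC, the NRF1-type motif GCGCANGCG or the TATA-type motif TATAAAA, which were chosen after the values had been seen.
Mrps5: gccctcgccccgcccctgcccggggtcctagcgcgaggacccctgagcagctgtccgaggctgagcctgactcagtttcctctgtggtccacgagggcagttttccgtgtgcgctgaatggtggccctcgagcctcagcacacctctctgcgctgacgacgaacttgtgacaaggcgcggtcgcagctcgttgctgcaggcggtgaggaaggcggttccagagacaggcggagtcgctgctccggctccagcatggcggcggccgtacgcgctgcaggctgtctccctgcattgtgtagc
Mrpl11: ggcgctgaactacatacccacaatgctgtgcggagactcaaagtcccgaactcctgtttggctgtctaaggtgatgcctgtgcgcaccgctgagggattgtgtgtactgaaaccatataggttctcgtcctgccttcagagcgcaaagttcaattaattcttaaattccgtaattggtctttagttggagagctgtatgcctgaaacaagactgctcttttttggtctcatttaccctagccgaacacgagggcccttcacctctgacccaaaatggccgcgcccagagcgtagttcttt
Mrpl30: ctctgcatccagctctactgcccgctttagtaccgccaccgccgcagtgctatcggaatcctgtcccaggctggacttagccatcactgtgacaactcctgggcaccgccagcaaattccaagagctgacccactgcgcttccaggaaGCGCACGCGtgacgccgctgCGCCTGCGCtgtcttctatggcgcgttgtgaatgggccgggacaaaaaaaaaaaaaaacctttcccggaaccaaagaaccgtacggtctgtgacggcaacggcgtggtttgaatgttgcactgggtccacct
Mrps7: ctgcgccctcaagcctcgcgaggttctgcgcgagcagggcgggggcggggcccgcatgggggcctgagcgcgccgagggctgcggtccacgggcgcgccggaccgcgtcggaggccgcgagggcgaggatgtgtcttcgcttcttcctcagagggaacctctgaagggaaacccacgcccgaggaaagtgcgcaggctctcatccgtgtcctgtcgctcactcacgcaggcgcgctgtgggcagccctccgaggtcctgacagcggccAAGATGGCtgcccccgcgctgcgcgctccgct
Mrpl52: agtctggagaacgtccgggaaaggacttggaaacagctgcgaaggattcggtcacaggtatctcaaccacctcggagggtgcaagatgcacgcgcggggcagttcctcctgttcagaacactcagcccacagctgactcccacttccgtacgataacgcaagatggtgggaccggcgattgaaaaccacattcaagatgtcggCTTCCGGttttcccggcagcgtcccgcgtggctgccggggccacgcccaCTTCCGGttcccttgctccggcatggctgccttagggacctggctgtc
The windows of Mrps5 and Mrpl11 held none of these motifs, that of Mrpl30 held 2 NRF1-type matches, that of Mrps7 held 1 YY1-type match close to its 3′ end, and that of Mrpl52 held 2 ETS-type matches. A window was found for 69 of the 78 members. The ETS-type motif was found for 26 of those 69 genes (37.7%), beside 9.93% of all 27025 genes with a window. The YY1-type motif was found for 12 (17.4%) beside 3.19%, and the NRF1-type motif for 16 (23.2%) beside 7.03%. The TATA-type motif was found for 4 (5.80%) beside 6.39%. The member windows were richer in G and C (59.0%) than all windows (53.8%), and the shares were not matched for this. A match is a description of letters in the window. The RefSeq start lies 204 bases downstream of the GENCODE start used for positions in Mrps5, 159 in Mrpl11 and 215 in Mrps7, and at the same base in Mrpl30 and Mrpl52, so that the windows of Mrps5, Mrpl11 and Mrps7 lie mostly within the gene as GENCODE places it.

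Barcodes, each standing for 1 droplet, were kept with at least 300 genes and at most 5% of UMIs from mitochondrial DNA. This left 8053 of 14524 barcodes in WT and 13767 of 18134 in KO, with medians of 5061 and 2713 UMIs, and 29 barcode sequences occurred in both sets. Zfp335 itself was at 8.03 CPM, UMIs scaled to a common total (95% counting interval 7.29 to 8.82), in WT and at 1.01 CPM (0.764 to 1.30) in KO. Barcodes were clustered without the members, and clusters were named from marker lists. Resting-like barcodes (clusters 1 and 6) expressed markers such as Ccr7 and Lef1, activated-like barcodes Tnfrsf9 and Nefh, effector-like barcodes Cxcr3, Klrg1 and S100a4, and cycling barcodes Mki67 and histone genes. The cycling cluster also had 7 of 9 effector markers raised. At a finer clustering (resolution 1.0), a cycling cluster with 8 of 9 effector markers raised held 422 barcodes in WT and 59 in KO. The other cycling cluster, with 0 of 9 raised, held 159 and 701. The part of this difference in makeup in the cycling ratios was not tested. Among activated-like clusters at that resolution, that led by Nefh and Hivep3 held 818 barcodes in WT and 1065 in KO. That led by 1700007K13Rik, Cdkn1a and Phlda3 held 7 and 201. The part of this in the activated-like ratios, of the module and of single members, was likewise not tested. Effector-like barcodes were 2002 in WT and only 58 in KO, so their KO values carry wide intervals. Of the resting-like barcodes, cluster 6, led by interferon-induced genes, held 144 in WT and 1286 in KO. T-lineage clusters 2 and 7, with 1100 barcodes in WT and 5496 in KO, were of low depth and led by haemoglobin and granulocyte genes, and were left unnamed. Clusters 12 and 14, led by natural killer and C1q genes, passed the T-lineage level but were set apart and enter no class. Foxp3 was at 25 to 65.7 CPM in the T-lineage clusters, and the sort also held erythroid-like, myeloid progenitor-like, neutrophil-like and B cell-like barcodes.

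The module was lowest in resting-like T cells and higher in every other T cell class, in both libraries. In WT the 78 members summed to 5459 CPM (5417 to 5501) in resting-like, 7062 (7022 to 7102) in effector-like, 8048 (7994 to 8103) in cycling and 8308 (8244 to 8372) in activated-like barcodes. In KO the sums were 5947 CPM (5914 to 5980) in resting-like, 7406 (7354 to 7458) in cycling, 7628 (7398 to 7864) in effector-like and 8175 (8121 to 8229) in activated-like barcodes. The order thus differed between the libraries in the place of the cycling class, whose KO interval overlapped that of the effector-like class. The activated-like class was 1.52 times (1.51 to 1.54) the resting-like class in WT and 1.37 times (1.36 to 1.39) in KO. The effector-like class was at 1.29 times in WT and 1.28 times in KO, and the cycling class at 1.47 times (1.46 to 1.49) in WT and 1.245 times (1.23 to 1.26) in KO. All of these intervals cover counting error only. The ratios to the resting-like class were smaller in barcodes of 2000 to 6000 UMIs. There they were 1.26 in WT and 1.29 in KO for activated-like, 1.13 and 1.14 for effector-like, and 1.06 and 1.16 for cycling barcodes.

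**Figure D1:**
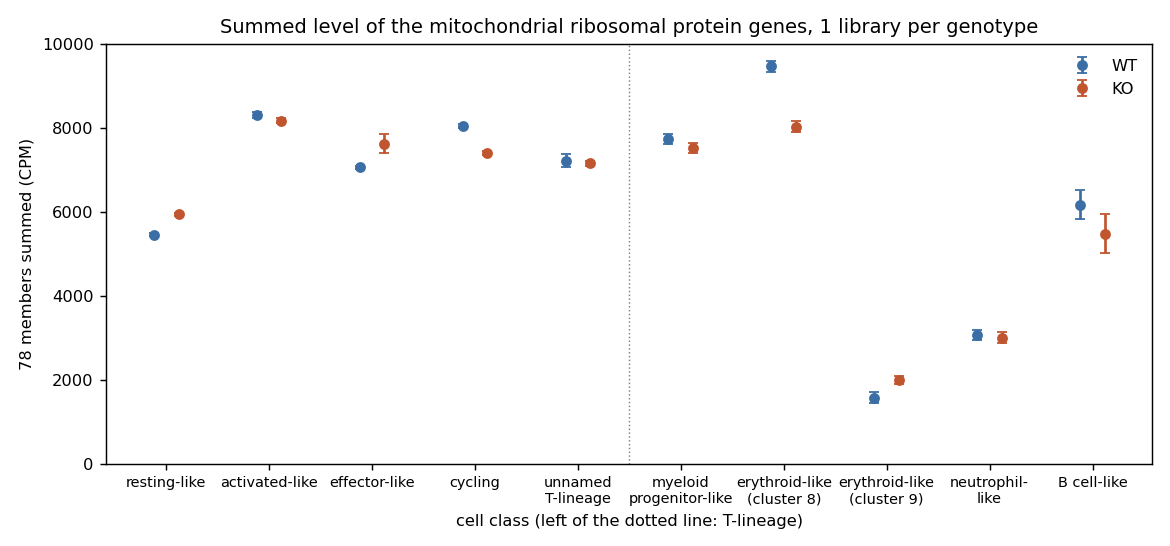
Summed level of the 78 members in CPM (vertical axis) by cell class, with WT in blue, KO in orange and bars for exact 95% Poisson counting intervals. Among T-lineage classes both resting-like points, at 5459 and 5947 CPM, lie below all others, and erythroid-like cluster 9 and the neutrophil-like class lie lowest in both libraries.

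Outside the T lineage the members spanned a wider range. Myeloid progenitor-like barcodes, which express Mpo and Elane, were at 7735 CPM in WT and 7528 in KO. Neutrophil-like barcodes, which express the granule genes Camp and Ngp, were at 3060 CPM in WT and 3005 in KO, or 0.561 and 0.505 times the resting-like T cells. Erythroid-like cluster 8, led by Car2 and Klf1, was at 9468 CPM in WT and 8032 in KO, whereas cluster 9, led by haemoglobin genes, was at 1572 and 1996 CPM. In WT the lowest and the highest levels of the module were thus both among erythroid-like barcodes, whereas in KO the highest was that of activated-like T cells. In all T-lineage barcodes together the module was at 7083 CPM in WT and 6932 in KO.

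Within the resting-like class the module was higher in KO, by a KO to WT ratio of 1.09 (1.08 to 1.10). The ratio was 1.09 (1.08 to 1.10) in resting-like cluster 1 and 1.027 (0.994 to 1.06) in cluster 6, whose interval includes equality. The effector-like class had a ratio of 1.08 (1.05 to 1.11) on 58 KO barcodes. The activated-like class had a ratio of 0.984 (0.974 to 0.994) and the cycling class one of 0.920 (0.911 to 0.929). In the unnamed T-lineage clusters of low depth the ratio was 0.991 (0.968 to 1.02). The module was therefore higher in KO in the resting-like class and lower in KO in the cycling class when all barcodes of a class were summed.

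The direction in the activated-like and cycling classes moved with the depth of the barcodes. Median depths were 3910 UMIs in WT and 3700 in KO for resting-like barcodes, but 14634 and 8415 for cycling barcodes, and from 1000 UMIs upward the module took a larger share of UMIs in deeper barcodes in nearly every step of both libraries. Among cycling barcodes of 4500 to 7000 UMIs the module was at 6230 CPM in WT and 6954 in KO, a ratio of 1.12 (1.06 to 1.18). At 7000 to 11000 UMIs the ratio was 1.10 (1.07 to 1.13), and at 11000 to 20000 UMIs it was 0.987 (0.972 to 1.00). These bins held 47, 123 and 281 of the 642 cycling barcodes in WT and 227, 296 and 267 of the 1049 in KO. Barcodes above 20000 UMIs and bins with few barcodes in either library were left out. None of the bins given had a ratio as low as that of the whole cycling class, which includes the barcodes left out. At resolution 1.0 the cycling cluster with 8 of 9 effector markers raised had medians of 17657 UMIs in WT and 16922 in KO. The cycling cluster with 0 of 9 raised had 9653 and 8959. Depth thus went together with makeup in the cycling class, and the part of each in these ratios was not tested. In the activated-like class the ratio went from 1.29 (1.13 to 1.46) at 2000 to 3000 UMIs to 0.930 (0.914 to 0.946) at 11000 to 20000 UMIs. In the resting-like class it lay between 1.06 and 1.20 in the 6 bins from 1000 to 20000 UMIs, and at 0.817 (0.702 to 0.949) in the bin of 500 to 1000 UMIs, which held 88 WT and 65 KO barcodes.

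**Figure D2:**
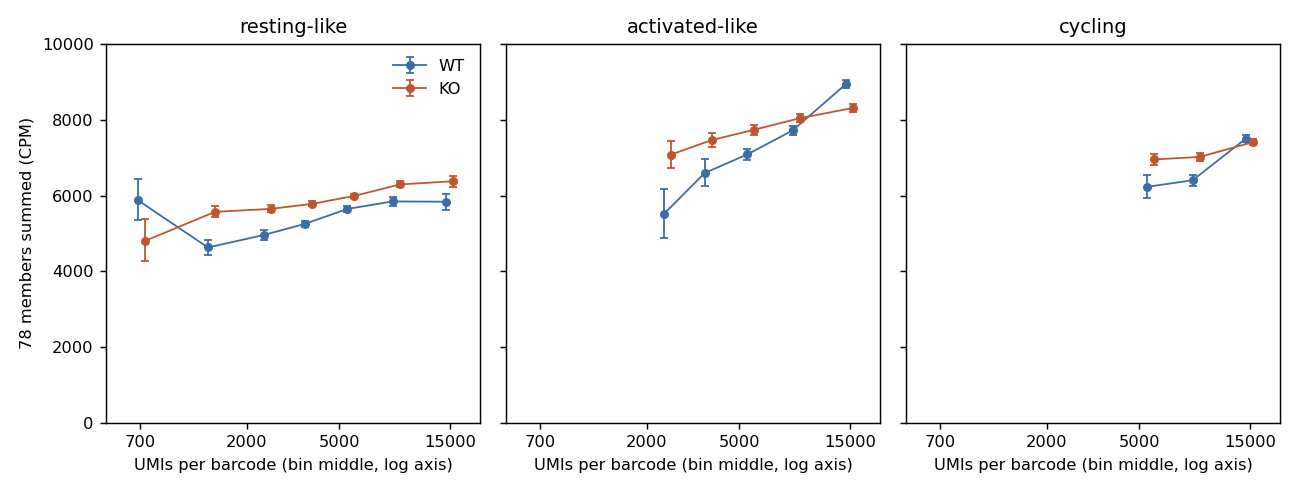
Summed level of the 78 members in CPM (vertical axis) against UMIs per barcode (horizontal log axis, middle of each bin) in 3 T cell classes, WT in blue and KO in orange, with exact 95% counting intervals. KO lies above WT in the resting-like class from 1000 UMIs upward, and WT meets or passes KO only in the deepest bin of the activated-like and cycling classes.

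After each barcode had been thinned to 1000 UMIs, resting-like barcodes held on average 5.30 member UMIs in WT (SD 2.44 over 2784 barcodes) and 5.82 in KO (SD 2.53 over 4997 barcodes). The spread between single barcodes was several times wider than the gap between the libraries. This spread includes the counting error of only 1000 UMIs per barcode, and it does not measure a spread between mice. Activated-like barcodes held 7.72 in WT and 7.88 in KO, and cycling barcodes 7.46 and 7.09. Among thinned resting-like barcodes 99.3% in WT and 99.7% in KO had at least 1 member UMI, beside 100.0% of KO and 99.97% of WT barcodes unthinned, so that the module as a whole was detected in nearly every T cell. Thinning left out 88 WT and 65 KO resting-like barcodes.

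Both subunits had nearly the same ratio in the resting-like class. The large subunit genes summed to 3582 CPM in WT and 3904 in KO, a ratio of 1.09 (1.08 to 1.10), and the small subunit genes to 1878 and 2042 CPM, a ratio of 1.09 (1.07 to 1.11). In the cycling class the ratios were 0.930 (0.919 to 0.941) for the large and 0.901 (0.886 to 0.916) for the small subunit. In the activated-like class they were 0.991 (0.978 to 1.00) and 0.972 (0.955 to 0.989). In the effector-like class they were 1.06 (1.02 to 1.10) and 1.12 (1.06 to 1.18), and in the unnamed T-lineage clusters 0.973 (0.945 to 1.00) and 1.029 (0.987 to 1.07). Neither subunit thus had the lower ratio in every class.

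All 78 members had at least 3 UMIs in each library in the resting-like class, and 238 to 11783 UMIs over both. For each, log2 KO to WT ratios were computed with 0.5 UMI added, and a member with at least 200 UMIs over both libraries counted as past the fold upward where KO was at least 25% above WT, and downward where WT was at least 25% above KO. In the resting-like class 8 of 78 members were past the fold upward, where 7.71% of 8212 genes with as many UMIs were, and 2 of 78 were past it downward, where 24.7% of genes were. The share of members past the fold upward (10.3%) was thus near the background, and the share downward (2.56%) was below it. The median log2 ratio of the members was 0.13 beside −0.08 over all genes, and 24.4% of members (19 of 78) were below zero, where 59.7% of genes were. With ratios scaled to the median gene, 16 members were past the fold upward (12.9% of genes) and 1 downward (18.4%). Most members thus differed by a small amount in the same direction, and few by a large one.

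In the activated-like class 5 of 78 members were past the fold upward (10.1% of 6744 genes) and 4 downward (21% of genes), with a median log2 ratio of −0.01 beside −0.06. Scaled to the median gene, the counts were 7 upward (13% of genes) and 3 downward (16.7%). In barcodes of 2000 to 6000 UMIs, where 46 members had enough UMIs, they were 16 upward (17.1% of 2085 genes) and 1 downward (16.6%). In the cycling class 1 of 77 members was past the fold upward (17% of 7126 genes) and 12 downward (14.7% of genes), with a median of −0.12 beside 0.03. In cycling barcodes of 2000 to 6000 UMIs only 16 members had enough UMIs, of which 6 were past the fold upward (24.3% of 1159 genes) and 2 downward (15.5%). In the unnamed T-lineage clusters the counts were 10 of 75 upward (15.5% of 5105 genes) and 7 of 75 downward (20.4%), with medians of −0.02 and −0.04. Over the resting-like, activated-like, effector-like and cycling classes 13 of 78 members had a KO to WT ratio above 1 in all 4, 5 were above 1 in none, and the other 60 were mixed. Among the 76 members with at least 200 UMIs in each of the 4 classes, 12 (15.8%) were above 1 in all, beside 16.0% of 6255 such genes, and 5 (6.58%) in none, beside 19.4% of genes. No member was past 1.5-fold in the same direction in all 4 classes.

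**Figure D3:**
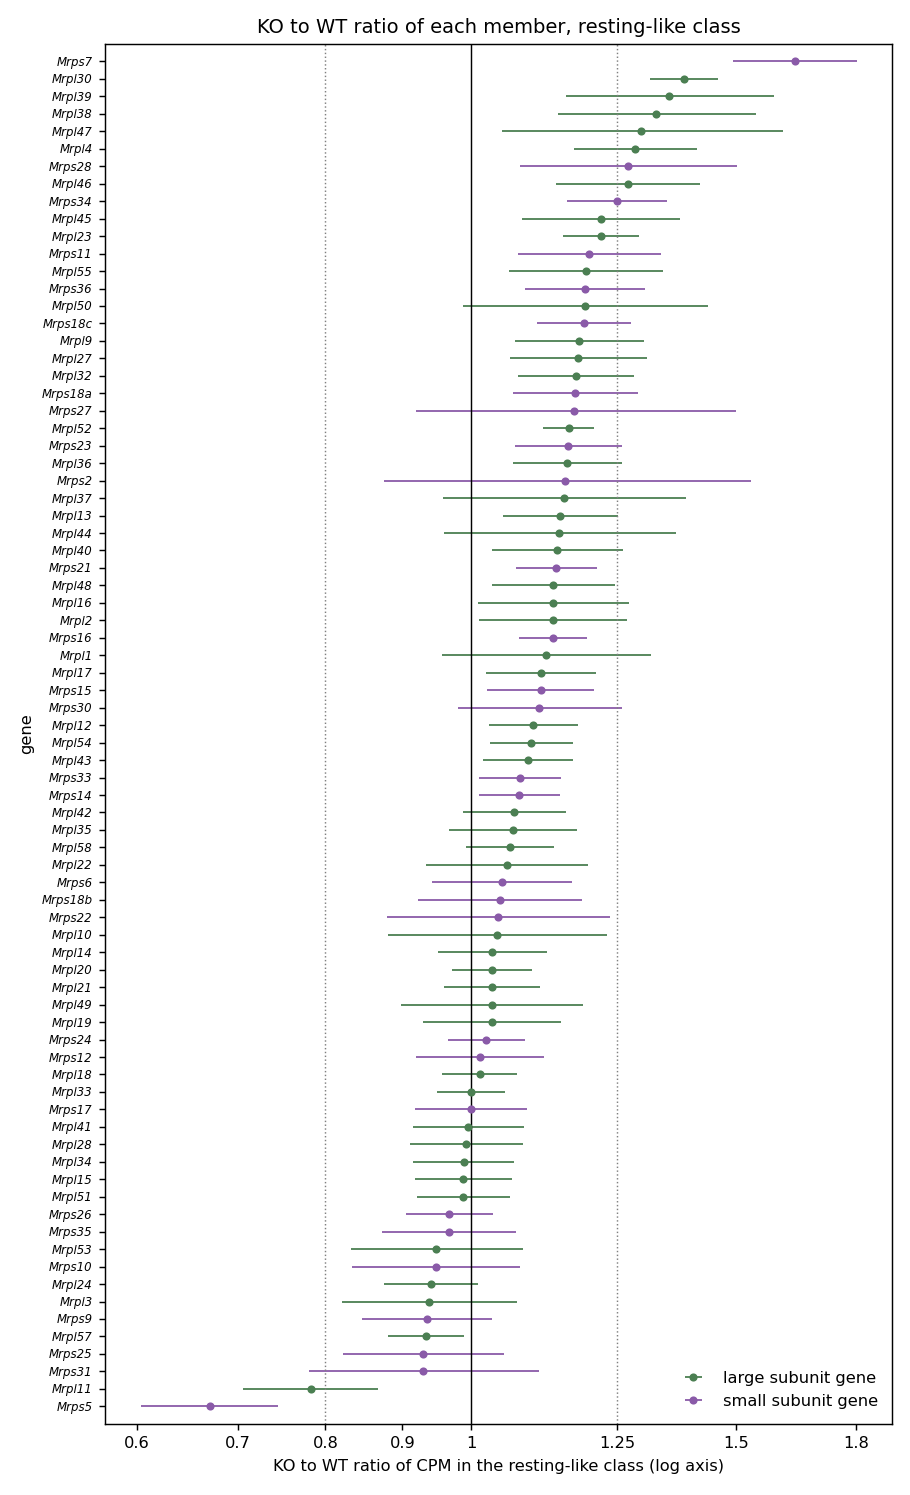
KO to WT ratio of CPM in the resting-like class (horizontal log axis) for each of the 78 members, large subunit genes in green and small subunit genes in purple, with exact 95% counting intervals and dotted lines where 1 library is 25% above the other. Mrps5 and Mrpl11 lie apart at the low end, at 0.670 and 0.782, and Mrps7 at the high end, at 1.64.

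The members at the low end in the resting-like class were led by Mrps5 and Mrpl11. Mrps5 (ENSMUSG00000027374, chr2:127587222-127606829), a protein of the small subunit, was at 55.4 CPM in WT and 37.1 in KO, a ratio of 0.670 (0.604 to 0.744). In activated-like barcodes it was at 84.8 CPM in WT and 42.5 in KO (0.501, 0.444 to 0.565), and in cycling barcodes at 62.0 and 32.4 (0.523, 0.458 to 0.597). In effector-like barcodes it was at 51.5 CPM in WT and 53.4 in KO, a ratio of 1.04 (0.690 to 1.5) that rests on 29 KO UMIs. Mrps5 was also lower in KO in the unnamed T-lineage clusters, at 67.5 and 38.0 CPM (0.563, 0.433 to 0.740). In WT it was the member with the second lowest effector-like to resting-like ratio, 0.930.

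Mrpl11 (ENSMUSG00000024902, chr19:4962147-4966999) encodes a large subunit protein of the site where translation factors bind. It was at 52.8 CPM in WT and 41.3 in KO in resting-like barcodes, a ratio of 0.782 (0.705 to 0.868). Its ratio was 0.578 (0.517 to 0.645) in activated-like, 0.663 (0.432 to 0.977) in effector-like and 0.471 (0.417 to 0.531) in cycling barcodes, where WT was at 79.5 and KO at 37.4 CPM. Mrpl11 was thus lower in KO in all 4 named classes. In the unnamed T-lineage clusters it was at 74.4 and 48.3 CPM (0.650, 0.508 to 0.840).

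The cycling ratios of both genes were near 1 in a small group of shallower barcodes. Cycling barcodes of 2000 to 6000 UMIs numbered 51 in WT and 289 in KO. Among them the ratio was 1.035 for Mrps5 and 1.04 for Mrpl11, without an interval. Only 16 members had at least 200 UMIs over both libraries at that depth, and the part of depth in these ratios was not tested. In the resting-like class the ratios of Mrps5 and Mrpl11 were 0.650 to 0.710 and 0.758 to 0.829 under every alternative tried.

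The other members named at the low end differed little from equality. Mrps31 (0.929, 0.780 to 1.11), Mrps25 (0.929, 0.822 to 1.05) and Mrps9 (0.934, 0.846 to 1.03), all of the small subunit, had intervals that include 1. The large subunit gene Mrpl57 was at 154 CPM in WT and 143 in KO (0.933, 0.880 to 0.989). A wide gap therefore separated Mrps5 and Mrpl11 from the remaining members.

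At the high end stood Mrps7 (ENSMUSG00000046756, chr11:115603925-115608036), a protein of the small subunit. It was at 49.7 CPM in WT and 81.4 in KO in resting-like barcodes, a ratio of 1.64 (1.49 to 1.8). The ratio was 1.30 (1.19 to 1.41) in activated-like, 2.05 (1.60 to 2.60) in effector-like and 1.20 (1.10 to 1.30) in cycling barcodes, and 1.59 in the unnamed T-lineage clusters. Mrps7 was thus higher in KO in all 4 named classes. The annotated gene overlaps Gga3 and Mif4gd on the opposite strand, and the sources used here do not state how strand was set in counting.

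Mrpl30 (ENSMUSG00000026087, chr1:37890477-37898535), of the large subunit, was among the 6 members with the most UMIs. It was at 172 CPM in WT and 238 in KO in resting-like barcodes (1.38, 1.31 to 1.46), at 184 and 243 in activated-like (1.32, 1.23 to 1.41), at 164 and 225 in effector-like (1.37, 1.13 to 1.64) and at 154 and 226 in cycling barcodes (1.47, 1.38 to 1.56). Its KO to WT ratio was thus of similar size in all 4 classes. It was the only member past the fold upward in the cycling class. In interferon-led cluster 6 alone its levels were 244 and 263 CPM, with a ratio of 1.07 (0.917 to 1.27).

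The other members at the high end were of the large subunit. Mrpl39 was at 18.8 CPM in WT and 25.5 in KO (1.35, 1.16 to 1.59), Mrpl47 at 10.5 and 13.7 (1.30, 1.05 to 1.61) and Mrpl4 at 53.8 and 69.1 (1.28, 1.17 to 1.41). Outside the resting-like class their ratios were 1.00 to 1.12 for Mrpl39 and 0.902 to 1.28 for Mrpl4. Those of Mrpl47 were 1.15 in activated-like, 1.13 in cycling and 0.318 (0.0652 to 0.938) in effector-like barcodes, the last on 3 KO UMIs. Mrpl47 overlaps Actl6a and Ndufb5 on the opposite strand.

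Mrpl38, a large subunit protein, differed in direction between classes. In resting-like barcodes it was at 20.8 CPM in WT and 27.6 in KO (1.33, 1.14 to 1.55), and in activated-like barcodes at 46.4 and 28.6 (0.616, 0.527 to 0.719). In WT its activated-like to resting-like ratio was 2.23, and in KO it was 1.034. The KO level of Mrpl38 was therefore nearly the same in both classes, while the WT level differed.

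**Figure D4:**
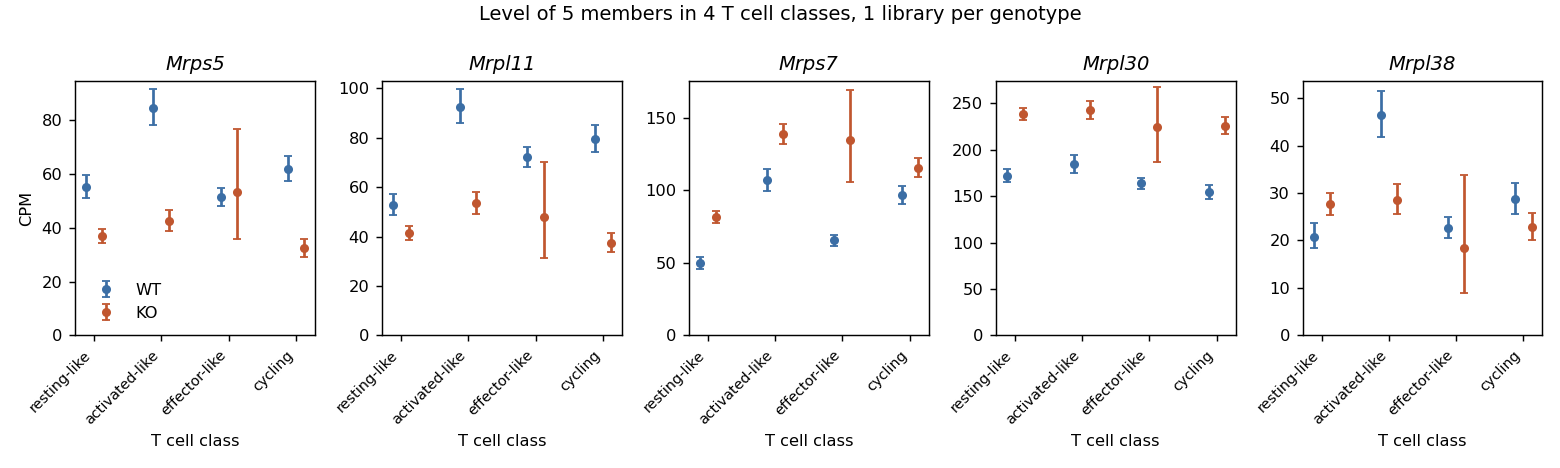
Level in CPM (vertical axis, from 0, scaled per gene) of Mrps5, Mrpl11, Mrps7, Mrpl30 and Mrpl38 in 4 T cell classes, WT in blue and KO in orange, with exact 95% Poisson counting intervals. Mrps5 and Mrpl11 lie lower in KO in resting-like, activated-like and cycling barcodes, Mrps7 and Mrpl30 lie higher in all 4 classes, and the effector-like KO intervals are wide because they rest on 58 barcodes.

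The same genes were compared in cells of the sort that are not T cells. In myeloid progenitor-like barcodes Mrps5 was at 75.7 CPM in WT and 73.9 in KO (0.976, 0.768 to 1.24), and Mrpl11 at 88.9 and 80.5 (0.906, 0.723 to 1.13). Mrpl30 was at 192 and 209 CPM (1.09, 0.944 to 1.26), and Mrps7 at 95.4 and 105 (1.11, 0.899 to 1.36). All 4 intervals include equality, and those of Mrps5 and Mrpl11 lie above their activated-like and cycling ratios. The interval of Mrpl11 also includes its resting-like ratio of 0.782. That of Mrps7 includes its activated-like and cycling ratios of 1.30 and 1.20. These barcodes also carried Cd3e, a T cell gene, at 52.3 CPM, beside 292 to 474 CPM in T-lineage clusters 1 to 7, and the part of RNA from other cells in these values was not tested. In erythroid-like barcodes the ratios were 0.593 for Mrps5, 0.673 for Mrpl11, 0.771 for Mrpl30 and 0.766 for Mrps7, where the whole module was at 0.711 and the mix of clusters 8 and 9 differed between the libraries.

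The most abundant members were far from equal in how they varied. Mrpl52, with 38207 UMIs and 5.43% of all member UMIs in T-lineage barcodes, was at 322 CPM in WT and 373 in KO in resting-like barcodes (1.16, 1.12 to 1.21), and its ratio was above 1 in all 4 classes. Mrpl18, with 23709 UMIs, was at 152 and 154 CPM (1.01, 0.956 to 1.07) in resting-like barcodes, but at 394 and 305 CPM (0.775, 0.740 to 0.811) in cycling barcodes. Mrpl33, with 22169 UMIs, was at 187 CPM in both libraries in resting-like and at 251 and 203 CPM in cycling barcodes. Mrps16 was at 180 and 204 CPM in resting-like barcodes, and Mrps24, which overlaps Urgcp on the same strand, at 147 and 150 CPM. Levels of different genes are given per UMI and were not compared per length.

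Nearly all members were higher in the activated-like than in the resting-like class. This held for 76 of 78 members in WT and 76 in KO, where 47.0% and 44.8% of all genes with at least 200 UMIs were higher. In the cycling class 74 members were higher in WT and 68 in KO (45.3% and 48.0% of genes), and in the effector-like class 73 and 66 (47.6% and 52.5%). The median activated-like to resting-like ratio over the members was 1.58 in WT and 1.40 in KO, and the median cycling to resting-like ratio was 1.49 and 1.246. The classes differed in depth. In barcodes of 2000 to 6000 UMIs the ratios of the summed members were 1.26 in WT and 1.29 in KO for activated-like barcodes. For cycling barcodes they were 1.06 and 1.16. The part of depth in the ratios of single members was not tested.

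Single members differed widely in this respect. Mrpl12, the stalk protein of the large subunit that recruits translation factors, had the highest activated-like to resting-like ratio in WT, with 106 CPM in resting-like and 293 CPM in activated-like barcodes (2.77). In KO its levels were 116 and 276 CPM (2.37). The small subunit genes Mrps28 (2.56) and Mrps6 (2.55) and the large subunit gene Mrpl50 (2.48) followed in WT, with 2.44, 2.09 and 1.65 in KO. Mrps6 overlaps Slc5a3 on the same strand. At the low end stood Mrpl58 (0.929), which codes for a peptidyl-tRNA hydrolase that frees stalled ribosomes, Mrpl9 (0.931), Mrpl48 (1.035) and Mrpl53 (1.04).

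In cycling barcodes of WT the highest ratios to the resting-like class were those of Mrpl18 (2.59), Mrpl51 (2.26), Mrpl12 (2.13) and Mrpl28 (2.08). In KO the same 4 genes were at 1.98, 1.97, 1.72 and 1.60. The lowest in WT were Mrpl24 (0.849), Mrpl9 (0.862), Mrpl30 (0.896) and Mrps35 (0.982), with 0.796, 0.852, 0.949 and 1.06 in KO. The members with the highest ratios in cycling barcodes were all of the large subunit, and only Mrpl12 was among the 4 highest in both classes.

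In effector-like barcodes of WT the ratio to the resting-like class was highest for Mrps36 (1.69), Mrpl27 (1.67), Mrpl18 (1.66) and Mrpl47 (1.65). Mrps36, in spite of its name, is known as a subunit of the oxoglutarate dehydrogenase complex of the citric acid cycle. It was at 57.8 CPM in resting-like and 97.7 in effector-like WT barcodes. The lowest ratios were those of Mrpl23 (0.892), Mrps5 (0.930), Mrpl30 (0.952) and Mrps35 (0.957). The effector-like class thus spanned a narrower range of ratios in WT (0.892 to 1.69) than the activated-like (0.929 to 2.77) and cycling classes (0.849 to 2.59).

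**Figure D5:**
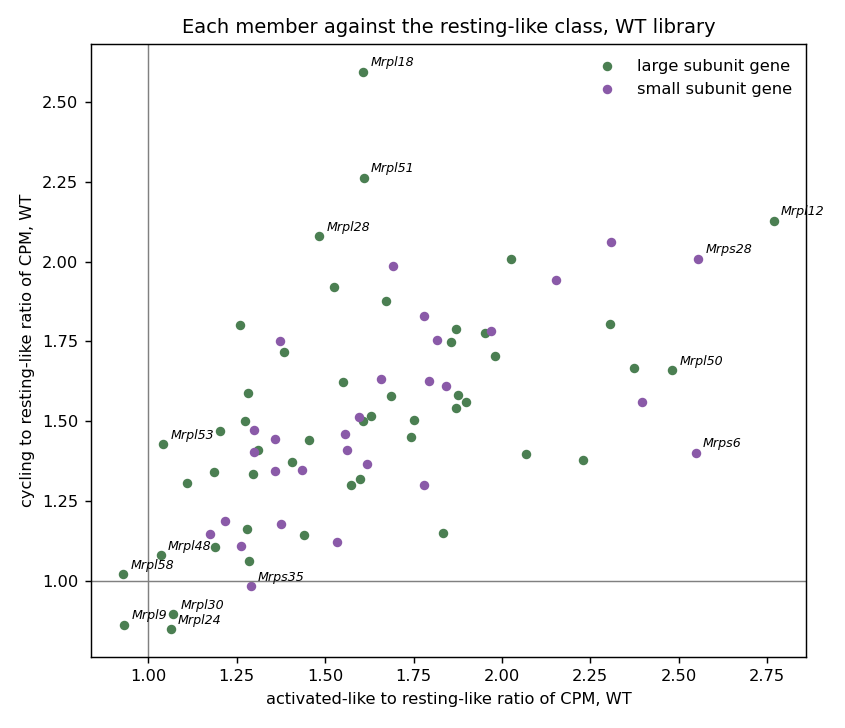
Ratio of CPM to the resting-like class in the WT library for each of the 78 members, in activated-like barcodes (horizontal axis) and cycling barcodes (vertical axis), large subunit genes in green and small subunit genes in purple. Most points lie above 1 on both axes, Mrpl12 lies farthest right at 2.77, and Mrpl18 lies highest at 2.59.

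Other genes that the mitoribosome depends on were described from lists chosen by function. Of 6 further mitoribosomal or membrane partner genes, 1 was past the fold upward (Oxa1l, an inner membrane insertase, 53.9 CPM in WT and 68.3 in KO) and 1 downward (Ptcd3, 21.2 and 16.1 CPM) in the resting-like class, where 7.71% and 24.7% of genes were. Gadd45gip1, of the large subunit, was at 104 and 108 CPM in resting-like but at 145 and 100.9 CPM in cycling barcodes (0.698). Of 11 translation factors 10 could be compared in the resting-like class, and 1, Gfm2, which recycles mitoribosomes, was past the fold downward (0.625). The elongation factor gene Tufm was at 37.0 and 41.8 CPM.

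Of 20 mitochondrial aminoacyl-tRNA synthetase and amidotransferase genes, which load tRNAs, 13 could be compared in the resting-like class, with 5 past the fold downward (24.7% of all genes) and 1 upward (7.71%). Their sum was at 747 CPM in WT and 339 in KO (0.453, 0.439 to 0.468), but Lars2 alone was at 534 and 155 CPM (0.290, 0.278 to 0.303). Without Lars2 the sum was at 213 and 184 CPM, a ratio of 0.862 (0.820 to 0.906). Of 25 assembly factor genes 18 could be compared, with 3 downward and 2 upward beside the same shares of all genes, and a ratio of the sum of 0.992 (0.957 to 1.03). The members' ratio of 1.09 in the resting-like class was thus above those of the translation factors (0.968, 0.918 to 1.02) and assembly factors, and its interval overlapped that of the 6 further mitoribosomal or partner genes (1.07, 1.04 to 1.10).

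The 13 protein genes of mitochondrial DNA, the templates of the mitoribosome, summed to 27557 CPM in WT and 25330 in KO in resting-like barcodes (0.919, 0.915 to 0.923). In cycling barcodes they were at 22266 and 22889 CPM (1.028, 1.02 to 1.034). In the activated-like class they were at 25273 and 22736 CPM (0.8996, 0.894 to 0.905), and in the effector-like class their ratio was 1.09 (1.08 to 1.11). The members' ratios were 1.09, 0.920, 0.984 and 1.08 in the same order of classes. In barcodes of 2000 to 6000 UMIs their ratios turned above 1 in the cycling (1.19) and activated-like (1.11) classes. Of the 13 genes of mitochondrial DNA, 4 were past the fold downward and 0 upward in the resting-like class (24.7% and 7.71% of genes). The counts were 4 and 0 in the cycling (14.7% and 17%), 5 and 0 in the activated-like (21% and 10.1%) and 2 and 3 in the effector-like class (23.8% and 21.1%). Single genes differed in direction, as with mt-Nd6 (0.650) and mt-Nd1 (1.22) in cycling barcodes. The filter on mitochondrial UMIs caps the transcripts of mitochondrial DNA directly and removed 44.6% of WT and 24.1% of KO barcodes. The 83 cytosolic ribosomal protein genes took 30.1% of resting-like UMIs in WT and 31.3% in KO, a ratio of 1.04, and haemoglobin genes took 0.0564% and 0.105%. The part of these shares in the members' ratios was not tested.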

How the data were processed

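The authors deposited 1 feature-barcode matrix of raw UMI counts per gene and barcode for each of the WT and KO libraries, made per the labels with Cell Ranger 5.0.1 on mm10. The counts are not normalized and were used as deposited. The matrices hold 64567991 UMIs in WT and 65480052 in KO. The filter kept barcodes of 300 or more genes whose mt- UMIs made up no more than 5%. Kept barcodes were scaled to 10000 UMIs, log-transformed and reduced, over the 2000 most variable genes, to 30 components. They were clustered by the Leiden method (igraph 0.11.9, resolution 0.5) without the 257 marker, member and companion list genes. No integration was run. Doublets (Scrublet of scanpy 1.11.5, the highest 5% of scores in WT and 8% in KO) were removed only as an alternative. CPM were formed from the UMI sums of each class in each library with exact Poisson intervals. KO to WT ratios have exact conditional binomial 95% intervals (scipy 1.17.1) for counting error alone. As each genotype has 1 library, no test was run and no p-value is given. The computation was tested on simulated counts for the resting-like comparison, where all 200 genes made to differ by 1.5-fold were past the fold of 25% used for members. Of the unchanged genes 1.75% were past it. The simulated counts held counting error alone, with no spread between mice or barcodes, so this checks only the arithmetic. Gene positions are those of GENCODE on GRCm38, and promoter windows those of RefSeq on GRCm38.p6.

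A T-lineage cluster, one with at least 50% of the median cluster's level of 6 T cell receptor and CD3 genes, took the class with the highest share of its markers raised 1.5-fold over the other T-lineage clusters, with at least 3 markers and 50% of its list. Clusters with Ncr1 or C1qa among their 10 leading genes were set apart, and those in which a list of another lineage was raised most stayed unnamed. The values were already known when this naming rule was made, so classes may differ from the study's own. The members and lists were chosen with earlier results of these data known. Members named were the 6 highest and 6 lowest by KO to WT ratio in the resting-like class (200 UMIs), the 6 with the most UMIs, and the 4 highest and 4 lowest by the ratio of each other named class to the resting-like class in WT.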

Additional observations from a re-analysis of the deposited data

Results flagged for a closer look

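Summed over all barcodes of a class, the KO to WT ratio of the module was 1.09 in the resting-like and 0.920 in the cycling class. The cycling ratio turned with depth, to 1.19 in barcodes of 2000 to 6000 UMIs, and with 1 library per genotype the difference between classes was not tested. The cycling class also differed between the libraries in its share of barcodes with effector markers. Among members, Mrpl38 had a KO to WT ratio of 1.33 in the resting-like and 0.616 in the activated-like class, a difference that was likewise not tested.

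The barcodes removed for mitochondrial UMIs also held the module. In barcodes of 5 to 10% mitochondrial UMIs the members took 5246 CPM (5181 to 5310) of the nuclear UMIs in 2758 WT barcodes and 5899 CPM (5827 to 5971) in 2269 KO barcodes, beside 7260 and 7024 CPM in the kept barcodes. These removed barcodes were shallower, with medians of 1385 UMIs in WT and 1479 in KO.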

How the results depend on the processing

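The KO to WT ratio of the module in the resting-like class stayed above 1 under every alternative run, from 1.08 to 1.15, with the values furthest from the reported 1.09 at a mitochondrial filter of 10% (1.11) and after scaling to the median gene ratio (1.15). Its value in cluster 1 alone (1.09), like the bins of depth and the sum without Lars2, was added after seeing the data. At resolution 1.0 a cluster led by Gpr83 and Igfbp4, with 603 WT and 2581 KO barcodes, stayed unnamed. The resting-like clusters then held 2050 and 162 barcodes in WT and 1138 and 1440 in KO. The libraries thus differed in the makeup of the resting-like class, and the part of this in its ratio was not tested. The activated-like ratio of 0.984 turned above 1 with the mean of single-barcode CPM (1.02), a denominator without haemoglobin, cytosolic ribosomal, mitochondrial and rRNA-like genes (1.01), median gene scaling (1.02), barcodes of 2000 to 6000 UMIs (1.11) and thinning (1.02). The cycling ratio of 0.920 was 0.947 with the mean of single-barcode CPM, 0.904 with median gene scaling, 0.95 after thinning and 0.936 at clustering resolution 1.0, and turned to 1.19 for barcodes of 2000 to 6000 UMIs. The effector-like ratio of 1.08 was 1.04 after thinning and 1.04 at resolution 1.0. The cause of these shifts was not tested.

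The ratios to the resting-like class stayed above 1 throughout. In barcodes of 2000 to 6000 UMIs they were 1.26 in WT and 1.29 in KO for activated-like, 1.13 and 1.14 for effector-like, and 1.06 and 1.16 for cycling barcodes. With the mean of single-barcode CPM they were 1.46 and 1.35 (activated-like), 1.26 in WT (effector-like), and 1.40 and 1.21 (cycling). At resolution 1.0 they were 1.58 and 1.43, 1.252 and 1.205, and 1.55 and 1.34 in the same order, and with the narrower denominator 1.5 and 1.39, 1.22 and 1.23, and 1.36 and 1.16. Without doublets they were 1.39 in KO for activated-like, 1.31 in WT for effector-like, and 1.49 and 1.26 for cycling barcodes.

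At 1.5-fold, 0 members were lower (8.21% of genes) and 1 higher (1.69%) in KO in the resting-like class, 3 lower (7.43%) and 0 higher (3.13%) in the activated-like class, and 2 lower (5.94%) and 0 higher (5.91%) in the cycling class. These are counts past a size, with no test. Median gene scaling gave 1 lower and 16 higher in the resting-like class. In barcodes of 2000 to 6000 UMIs the counts were 1 lower and 16 higher for activated-like and 2 lower and 6 higher for cycling barcodes. Median gene scaling gave subunit ratios (large, small) of 1.16 and 1.15 (resting-like), 1.0301 and 1.01 (activated-like, where both turned above 1), and 0.914 and 0.885 (cycling). The cycling ratios of Mrps5, Mrpl11 and Mrpl38 turned to 1.035, 1.04 and 2.31 in barcodes of 2000 to 6000 UMIs. These values rest on few WT barcodes and were given no interval. Of 221 alternative values computed, 154 stayed within the reported counting interval or within 1.5 times a count, 57 moved further and 10 reversed. No replicate could be left out and no paired fit made, since each genotype has 1 library.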
